A study of Mus musculus with 6 samples.

Results

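The DNAJ family holds the proteins with a J-domain, the co-chaperones that bring client proteins to HSP70 chaperones. Its members were taken from the deposited read-count table as every gene whose symbol is *Dnaja*, *Dnajb* or *Dnajc* followed only by a number, without pseudogenes. These were 43 of the 55341 genes in the table, 4 of class A, 13 of class B and 26 of class C. Of them, 38 had enough counts to be tested among 16017 genes, which were 4 of class A, 9 of class B and 25 of class C.

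The RNA came from the aorta of 3 mutant (miRNA-26b-/-) and 3 wild-type (miRNA-26b+/+) animals, with 1 library per mouse. Replicates are numbered here within each group in the order of the libraries, so a shared number does not pair mice. The mice were 8 weeks old, were fed chow, and carry the strain label C57BL/6NCrl. The miRNA-26b-/- allele lacks 160 bp of intron 4 of *Ctdsp1*, the host gene of the miRNA. It was made in R1/E (129/Sv) embryonic stem cells with loxP sites around this stretch, an Flp cross removed the neomycin cassette, and CreERT2 with tamoxifen deleted the stretch in an earlier generation. The labels name endothelial cells, whereas the study's methods describe perfused aortic arch and thoracic aorta. Summed over 5 markers each, smooth muscle genes reached 30396 to 40934 CPM (counts per 1000000 counts of the library) in the 6 libraries and endothelial genes 379 to 1565 CPM, in every one of them below the smooth muscle sum.

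The J-domain of these proteins stimulates the ATPase of HSP70, which then closes on the client protein, and nucleotide exchange factors such as the BAG proteins open it again. Class A members also carry a glycine- and phenylalanine-rich stretch and a zinc-binding region, class B members carry the former without the latter, and class C members share only the J-domain and are mostly specialised for a compartment or a task. Heat shock factor HSF1 induces several class A and B members under heat or proteotoxic stress, and the unfolded protein response induces several members of the endoplasmic reticulum.

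The miRNA that the mutant mice lack pairs with its targets through its seed, bases 2 to 8, which are in capitals in the mature sequence (RefSeq, GRCm38.p6, chr1:74394324-74394344, forward strand).
miRNA-26b-5p: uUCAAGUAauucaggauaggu

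The reverse complement of this seed, TACTTGA, was looked for in each gene's longest annotated 3′ UTR, on the strand of the transcript. It occurred in 2 of the 38 tested members (5.26%), against 11.3% of the 13464 tested genes with a 3′ UTR. The 8-base form TACTTGAA occurred in 0 of the 38 members and in 4.92% of these genes. The stretches around both matches are shown because they are the only 7-base matches to this seed in the 3′ UTRs searched. Other UTRs of these genes and the 3p arm of the miRNA, which the mice also lack, were not searched. The *Dnaja1* match lies at chr4:40735589-40735595 and the *Dnajb11* match at chr16:22878441-22878447, both on the forward strand (GENCODE M21 transcripts, GRCm38), with the match in capitals.
Dnaja1: gaggttctcccTACTTGAcatcctcagtg
Dnajb11: atgcctggttcTACTTGAtgtcactgtga

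Neither of these genes passed the test between the groups. *Dnaja1*, a cytosolic co-chaperone of HSP70, had 77.5, 63.6 and 76.6 CPM in miRNA-26b-/- and 124.2, 66.2 and 55.7 CPM in miRNA-26b+/+ mice. Its log2 fold change, miRNA-26b-/- minus miRNA-26b+/+ here and throughout, was -0.19 (SE 0.25, edgeR quasi-likelihood test, Benjamini-Hochberg adjusted p = 0.946), and the groups overlapped. Its exons share 7.046% of their bases with *Smu1* on the opposite strand, and 1803 of the 8773 different 50-base stretches of its transcripts also occur in other genes. *Dnajb11*, which serves the HSP70 of the endoplasmic reticulum, had 68.1, 79.3 and 62.4 CPM against 71.2, 84.8 and 77.0 CPM. Its log2 fold change was -0.15 (SE 0.18, 95% interval -0.52 to 0.23).

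For 19 of the 38 tested members the log2 fold change was within 0.2 of 0. At an unadjusted p under 0.05 with the quasi-likelihood test of edgeR, 1 of the 38 was higher in miRNA-26b-/- mice and 0 were lower, which is 2.63%, against 6.47% of all 16017 genes tested (3.4% higher and 3.07% lower). With DESeq2 0 members passed, beside 5.28% of all genes, and with limma voom 2 of 38 passed, both lower, beside 5.29%. With p-values adjusted by Benjamini-Hochberg, 0 members passed with any of these tools. Of all 16017 genes tested, 1 (0.00624%) passed with edgeR, 57 with DESeq2 and 3 with limma voom. DESeq2 adjusted over the genes that its own filter kept, the other tools over all 16017. The libraries of the groups did not overlap for 6 of the 38 members (15.8%), against 11.5% of all genes tested (5.65% higher and 5.88% lower). Of these 6, *Dnaja4*, *Dnajb12*, *Dnajc1* and *Dnajc18* were lower and *Dnajc11* and *Dnajc21* were higher in every miRNA-26b-/- library, and 0 of the 6 passed at an unadjusted p under 0.05.

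The median log2 fold change of the tested members was -0.05, with 18 above 0 and 20 below 0, and that of all genes tested was 0.01. By class the medians were -0.29 for class A (0 above and 4 below 0), -0.15 for class B (2 above and 7 below) and 0.07 for class C (16 above and 9 below). These medians rest on single libraries: without miRNA-26b+/+ replicate 1 those of class A and B were -0.14 and -0.053, without miRNA-26b+/+ replicate 3 they were -0.46 and -0.25, and without miRNA-26b-/- replicate 2 that of class B was -0.22 and that of class C was -0.075, below 0. That of class C was also 0.011 without miRNA-26b-/- replicate 1. The 95% intervals of 37 of the 38 members span 0. For 29 of the 38 the interval stays within 1 on the log2 scale in either direction, a 2-fold change. For 7 it stays within a 1.5-fold change. For the other members it reaches beyond 1.5-fold, so these 3 mice per group do not exclude a change larger than that. The share of all counts that fell on the 43 members was 0.229% ± 0.0195 in miRNA-26b-/- and 0.246% ± 0.0308 in miRNA-26b+/+ mice (SD, n = 3 each; two-sided exact permutation test, p = 0.7, where the smallest p that 3 against 3 libraries allow is 0.1).

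**Figure D1:**
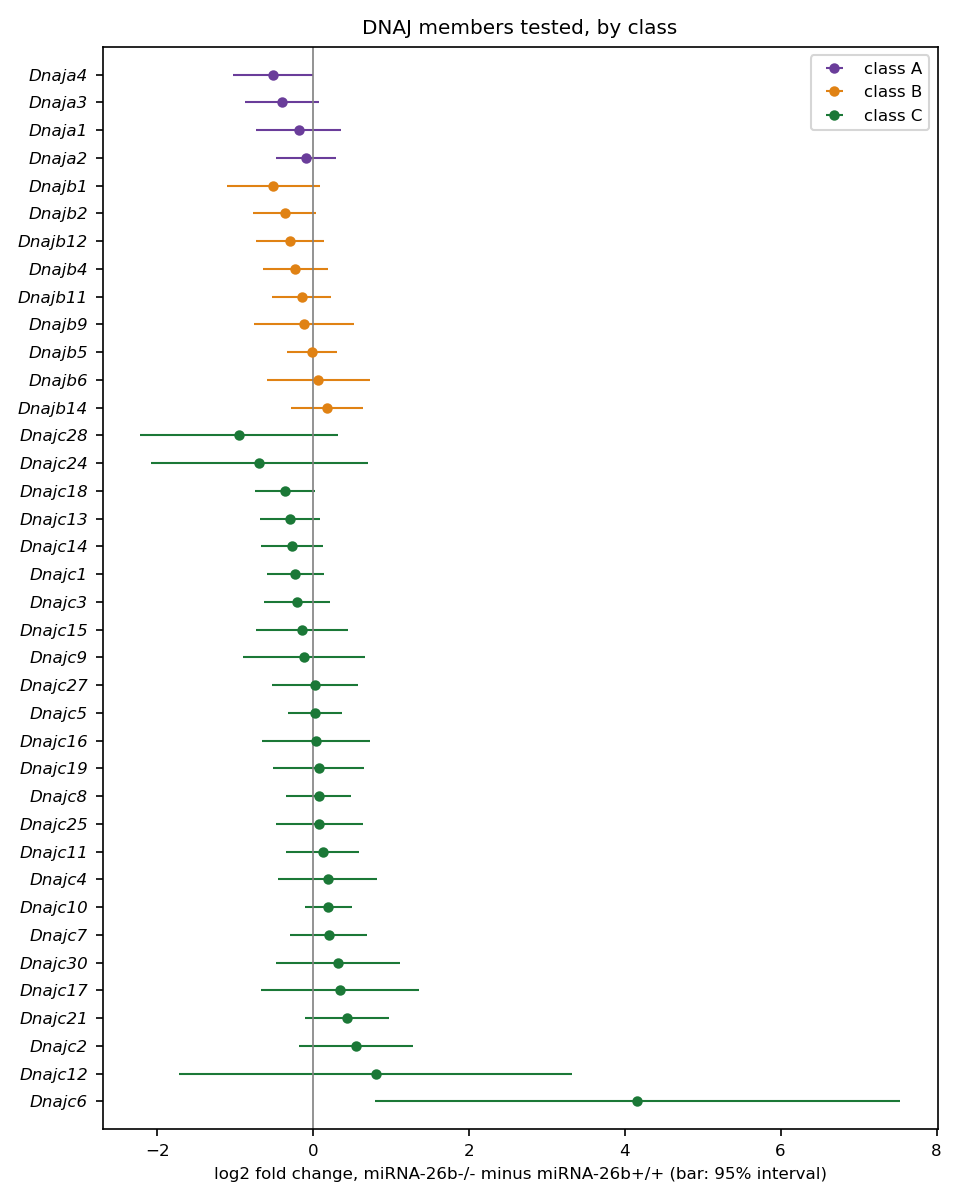
Log2 fold change of each of the 38 tested members (miRNA-26b-/- minus miRNA-26b+/+, x axis), with 95% intervals as bars, ordered within class A, B and C. The 4 points of class A lie left of 0, and the interval of *Dnajc6*, from 0.79 to 7.53, does not span 0.

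Levels between genes were compared as CPM per kb of annotated exon, which understates genes with long exons that are little used. On this scale the tested members spanned a 150-fold range. The highest was *Dnajc3* with 48.0 CPM per kb, a co-chaperone of the endoplasmic reticulum, followed by *Dnajc10* (43.6), a disulfide reductase of the same compartment, *Dnaja2* (42.9), a cytosolic co-chaperone, and *Dnajb4* (40.8), a heat-inducible co-chaperone of the cytosol. The libraries of these 4 genes overlapped, so their order is not set. *Dnajc8*, which is bound to the splicing machinery, followed at 27.6, *Dnajb11* at 22.8 and *Dnajb5*, a cytosolic class B member, at 22.6. In class A, *Dnaja3* (12.3) and *Dnaja4* (11.4) came after *Dnaja2*.

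**Figure D2:**
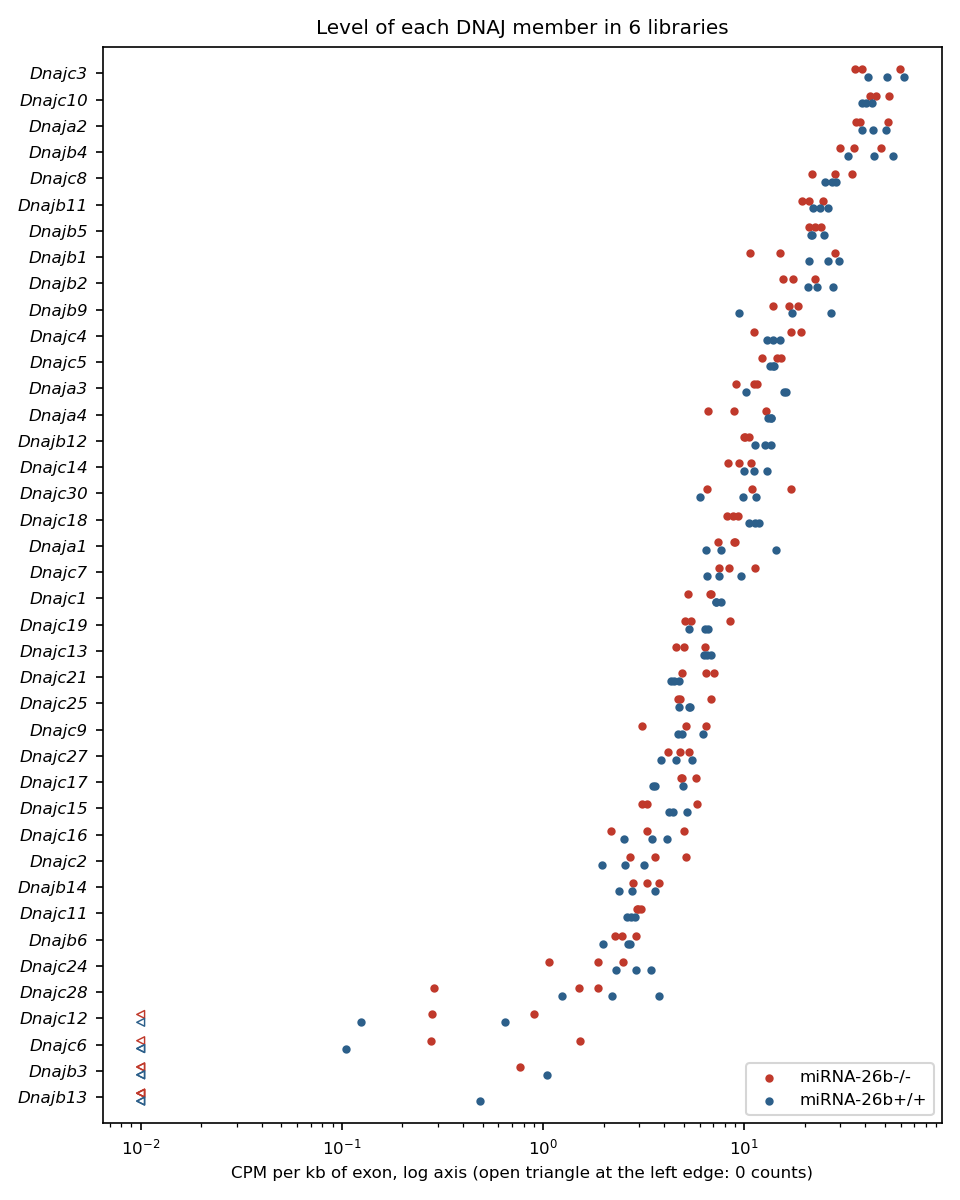
Level of the 40 members with counts in at least 1 library, in CPM per kb of exon on a log axis, with 1 point per library (red, miRNA-26b-/-, blue, miRNA-26b+/+) and open triangles at the left edge for libraries with 0 counts. Most members lie above 1 CPM per kb in all 6 libraries, and *Dnajc6*, *Dnajc12*, *Dnajb3* and *Dnajb13* are at 0 in some libraries.

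At the low end 5 members could not be tested. *Dnajb7*, *Dnajb8* and *Dnajc22* had 0 counts in all 6 libraries, which allows up to 3 counts in each by counting error alone. *Dnajb7* and *Dnajb8* are known from testis. *Dnajb3*, another gene known from testis, had 27 counts in miRNA-26b-/- replicate 2 and 30 in miRNA-26b+/+ replicate 2, and 0 in the other libraries. *Dnajb13*, a protein of sperm tails and cilia, had 40 counts in miRNA-26b+/+ replicate 3 alone, and 305 bases of its exons are shared with *Ucp2*, so reads from either gene cannot be told apart. Of the tested members, 34 had at least 100 counts in every library, from 127 to 14695.

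The class A members of the cytosol did not pass the test. *Dnaja4* had 32.01, 23.6 and 46.2 CPM in miRNA-26b-/- and 48.6, 47.0 and 48.6 CPM in miRNA-26b+/+ mice. All 3 miRNA-26b-/- values were below all 3 controls, but replicate 3 was close to them. The means were 33.9 ± 11.4 and 48.1 ± 0.924 CPM (SD, n = 3 each), which gives a log2 fold change of -0.51 (SE 0.24, edgeR, unadjusted p = 0.0514, adjusted p = 0.769). The exons of *Dnaja4* share 44.05% of their bases with *Wdr61* on the opposite strand, and reads were counted without strand for both genes, so in that stretch the reads of both cannot be told apart. *Dnaja2* had 106.3, 111.8 and 153.4 CPM against 150.5, 129.6 and 115.0 CPM, and the groups overlapped widely. *Dnaja3*, the class A member of mitochondria, had 43.9, 45.1 and 35.6 CPM against 61.4, 63.3 and 39.9 CPM. Only its miRNA-26b+/+ replicate 3 lay within the range of the mutants, and the log2 fold change was -0.40 (SE 0.22, edgeR, adjusted p = 0.804).

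Among the class B members of the cytosol, *Dnajb1*, the classical heat-inducible HSP40, had 48.5, 34.4 and 90.2 CPM in miRNA-26b-/- and 83.7, 95.3 and 66.9 CPM in miRNA-26b+/+ mice. Replicates 1 and 2 of the mutants were below every control, whereas replicate 3 was among the controls. The log2 fold change was -0.51 (SE 0.28, edgeR, adjusted p = 0.793). *Dnajb4*, which is abundant in muscle, had 307.2, 262.0 and 417.9 CPM against 479.6, 388.2 and 288.2 CPM, a log2 fold change of -0.23 (SE 0.20). Here too replicate 3 was the highest mutant library, and the groups overlapped. *Dnajb5* had 142.6, 124.9 and 133.4 CPM against 127.0, 128.5 and 148.2 CPM. With a log2 fold change of -0.01 (95% interval -0.34 to 0.31), it was the member nearest to 0 among those of class B. *Dnajb6*, which holds back protein aggregation, had 14.9, 17.6 and 13.8 CPM against 16.3, 11.99 and 16.0 CPM, and 1267 of the 6041 different 50-base stretches of its transcripts also occur in other genes, so reads there may have been left out or counted for both.

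*Dnajb2*, a co-chaperone known from neurons that also binds ubiquitin, lies 0.842 Mb from *Mir26b* (GRCm38, chr1:75236406-75245692). It had 95.5, 74.4 and 66.5 CPM in miRNA-26b-/- and 117.7, 97.8 and 88.0 CPM in miRNA-26b+/+ mice. Only replicate 1 of the mutants reached into the range of the controls. Its log2 fold change was -0.37 (SE 0.19, edgeR, unadjusted p = 0.0698, adjusted p = 0.781). *Dnajb3*, 13.81 Mb from *Mir26b*, was the other member within 20 Mb and had too few counts for a test.

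In the mutant group *Dnajb1*, *Dnaja4* and *Dnajb4* were highest in replicate 3. So were the stress-inducible HSP70 genes *Hspa1a* and *Hspa1b* and several marker sums of other cells. *Hspa1a* had 54.2, 46.3 and 131.0 CPM in the mutants against 216.7, 108.6 and 52.4 CPM. *Hspa1b* had 45.4, 47.0 and 187.3 CPM against 265.5, 117.6 and 51.8 CPM. Both were highest of the controls in replicate 1, as was *Dnajb4*, whereas *Dnajb1* was highest there in replicate 2. A link of these HSP70 genes to the members was not tested. The 5 endothelial markers summed to 379 and 410 CPM in miRNA-26b-/- replicates 1 and 2, to 1565 CPM in replicate 3 and to 1088 to 1489 CPM in miRNA-26b+/+ mice. All 5 had negative log2 fold changes, 1 of them, *Tek*, at an unadjusted p under 0.05, and none was at 0 in any library. The 5 macrophage markers summed to 235, 279 and 623 CPM in the mutants, in the same order, and to 381 to 443 CPM in the controls, and the 5 fibroblast markers to 4213, 4692 and 7638 CPM against 4534 to 5172 CPM. Between mutant replicates 1 and 2 the order was the other way, as the 3 members were lower and these sums higher in replicate 2, and in the controls *Dnajb4* was highest in replicate 1, where the endothelial sum was lowest. The 5 smooth muscle markers were at 38332, 34318 and 30396 CPM against 33269 to 40934 CPM. The part of these cells in the values of the members was not tested, and in whole vessels fewer cells of a type and less RNA per cell cannot be told apart.

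Without miRNA-26b-/- replicate 3, 5 members were lower at an unadjusted p under 0.05 with edgeR, *Dnaja4*, *Dnajb1*, *Dnajb4*, *Dnajc3* and *Dnajc13*, and *Dnajc6* was higher. These 6 of 38 members stood beside 10.8% of all genes tested without that library. *Dnajb1* then had a log2 fold change of -0.998 (adjusted p = 0.0604) and *Dnaja4* of -0.81 (adjusted p = 0.178). Without miRNA-26b+/+ replicate 3, *Dnaja3* and *Dnajb2* were lower, 2 of 38 beside 4.36% of all genes, and without miRNA-26b-/- replicate 1 *Dnajb2* alone was, 1 of 37 beside 5.76%. With any single library left out, 0 members passed after adjustment.

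**Figure D3:**
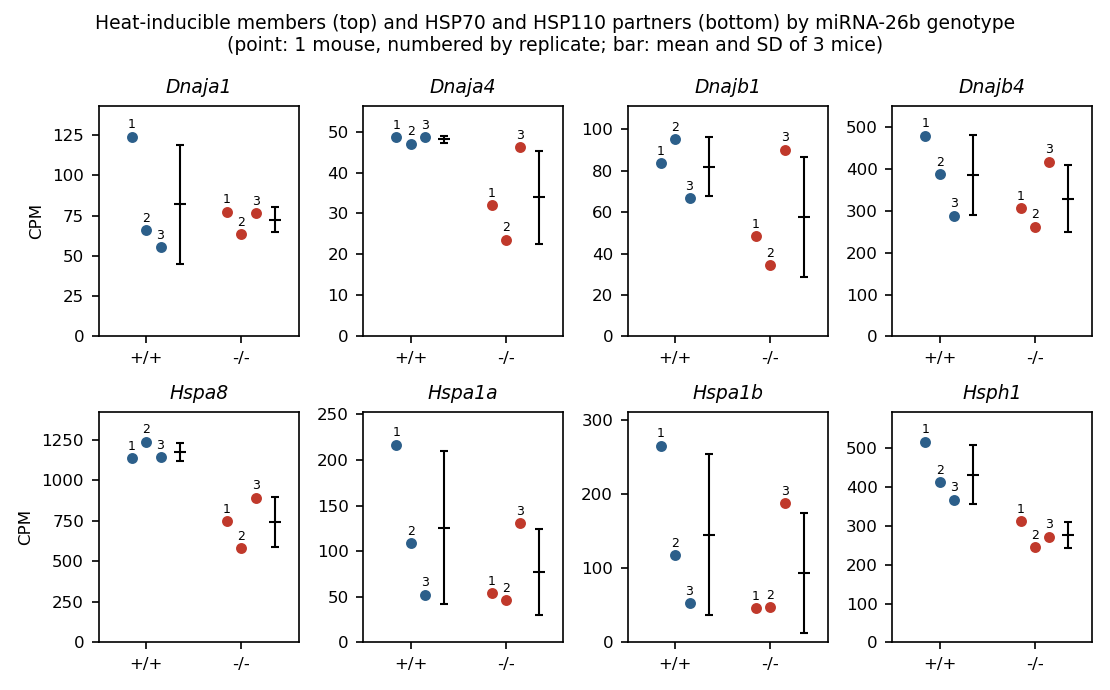
CPM of 4 heat-inducible members (top) and of 4 HSP70 and HSP110 genes (bottom) in each mouse by miRNA-26b genotype, numbered by replicate, with the mean and SD of 3 mice. *Dnajb1* and *Dnaja4* are low in miRNA-26b-/- replicates 1 and 2 and at control level in replicate 3, whereas *Hspa8* and *Hsph1* are lower in all 3 mutant mice.

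The promoters of the family were searched for the heat shock element, the letters that HSF1 binds. A pair of units, GAANNTTC or TTCNNGAA, and a row of 3 units, GAANNTTCNNGAA or TTCNNGAANNTTC, which holds pairs within it, were looked for on both strands from 250 bases before to 50 bases after each RefSeq start. A pair was found in 6 of the 36 members with a promoter sequence (16.7%) and in 14.2% of the 11190 tested genes with one. The 3 units occurred in *Dnajb6* alone, and in 0.608% of these tested genes. In the list of other HSF1 response genes a pair occurred in 9 of 13 (69.2%). Neither promoter of *Dnajb1* held a match, which says only that these letters are not in these windows.

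The other pairs were in *Dnajc10* and *Dnajc27*. The matches of the 4 cytosolic members are shown with the motif in capitals, because they are the members that heat is known to induce or that hold the 3 units (RefSeq, GRCm38.p6). That of *Dnaja1* lies at chr4:40722333-40722362 on the forward strand, those of *Dnaja4* at chr9:54699458-54699487 and chr9:54699496-54699525 on the forward strand, that of *Dnajb4* at chr3:152193846-152193870 on the reverse strand and that of *Dnajb6* at chr5:29735844-29735872 on the forward strand. Those of *Dnaja4* and *Dnajb4* are intronic to longer annotated transcripts, and those of *Dnaja1* and *Dnajb6* fall in an annotated exon of another transcript.
Dnaja1: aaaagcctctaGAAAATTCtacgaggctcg
Dnaja4: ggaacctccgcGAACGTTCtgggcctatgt
Dnaja4: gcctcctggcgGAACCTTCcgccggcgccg
Dnajb4: ttcgttcgctgTTCTAGAAagtaca
Dnajb6: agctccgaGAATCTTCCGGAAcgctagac

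The 8 members assigned here to the endoplasmic reticulum had a median log2 fold change of -0.18. Of these 8, 0 passed at an unadjusted p under 0.05 with edgeR. *Dnajc3*, which also restrains the kinase PERK, had 182.1, 197.6 and 307.3 CPM in miRNA-26b-/- and 319.3, 262.1 and 212.4 CPM in miRNA-26b+/+ mice, a log2 fold change of -0.21 (SE 0.20). Its replicates 1 and 2 were below every control and replicate 3 was among them, the order also seen for *Dnajb1*. *Dnajc10* had 225.0, 211.6 and 262.0 CPM against 201.7, 215.4 and 192.4 CPM, a log2 fold change of 0.20 (95% interval -0.11 to 0.50), and its groups overlapped in 1 library on either side. *Dnajc1*, a membrane protein that touches ribosomes, had 79.99, 78.4 and 61.3 CPM against 84.5, 89.0 and 84.0 CPM. Its groups did not overlap, at a log2 fold change of -0.23 (SE 0.17, edgeR, adjusted p = 0.870). *Dnajb12*, a membrane protein that takes part in the degradation of misfolded proteins, had 33.4, 33.9 and 35.7 CPM against 42.8, 38.0 and 45.6 CPM. It too was lower in every mutant, at -0.30 (SE 0.21, edgeR, adjusted p = 0.858), while its close relative *Dnajb14* was at 0.17 (SE 0.22) with overlapping groups. *Dnajb9*, a target of the unfolded protein response, ranged from 24.0 to 68.5 CPM within the controls and from 35.5 to 47.1 CPM within the mutants.

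A full endoplasmic reticulum stress element, CCAAT, 9 bases of any kind and CCACG, on either strand, was found in the promoter of *Dnajc3* and in 0.143% of the tested genes with a promoter sequence. Another endoplasmic reticulum stress element, ERSE-II, was also looked for in these windows. It was found in 1 of the 36 members, *Dnajb11*, and in 0.0804% of the tested genes with a promoter sequence. The *Dnajb11* match begins 7 bases after the start, in an annotated exon, and is not shown. The *Dnajc3* match lies upstream of the gene at chr14:118937822-118937850 on the forward strand (RefSeq, GRCm38.p6). It is shown with the element in capitals as the only match to the full element in the family.
Dnajc3: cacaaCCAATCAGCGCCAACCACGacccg

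The 5 members assigned here to mitochondria had a median log2 fold change of 0.07. *Dnajc11*, which is bound to the complex that shapes the inner membrane, had 32.7, 31.4 and 31.5 CPM in miRNA-26b-/- and 29.2, 27.8 and 30.6 CPM in miRNA-26b+/+ mice. The groups did not overlap but lay close, at 0.12 (SE 0.22, edgeR, adjusted p = 0.962). *Dnajc15* and *Dnajc19*, both of the import motor, had log2 fold changes of -0.15 (SE 0.28) and 0.07 (SE 0.27). *Dnajc30*, which serves respiration, was at 0.32 (SE 0.37), and shares 26.25% of its exon bases with *Bud23* on the opposite strand.

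The 15 members assigned here to the cytosol and nucleus had a median log2 fold change of -0.09. Of these 15, 0 passed at an unadjusted p under 0.05 with edgeR. Among those of class C, *Dnajc21*, a factor of ribosome maturation, had 30.8, 23.4 and 33.9 CPM in miRNA-26b-/- and 20.8, 21.3 and 22.7 CPM in miRNA-26b+/+ mice. All mutants were above all controls, replicate 2 only slightly, at 0.43 (SE 0.25, edgeR, adjusted p = 0.813). *Dnajc2*, a co-chaperone that sits on the ribosome, had 18.1, 13.7 and 25.7 CPM against 16.0, 9.87 and 12.8 CPM, a log2 fold change of 0.55 (SE 0.34) with overlapping groups. *Dnajc8* had 72.3, 88.1 and 55.7 CPM against 69.9, 72.8 and 64.1 CPM and spread more within the mutants than between the groups. *Dnajc7*, which binds both HSP70 and HSP90, was at 0.20 (SE 0.23) and *Dnajc9*, a histone chaperone, at -0.12 (SE 0.37).

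The medians by compartment cover only the members assigned to a compartment here, which were not all of those tested. Of the members left unassigned, *Dnajc18* had 51.1, 48.4 and 45.0 CPM in miRNA-26b-/- and 62.4, 57.9 and 65.2 CPM in miRNA-26b+/+ mice. Every mutant was below every control, with a log2 fold change of -0.36 (SE 0.18, edgeR, unadjusted p = 0.0665, adjusted p = 0.769). *Dnajc28* had the lowest log2 fold change in the family, -0.95 (SE 0.59), with 5.35, 6.71 and 1.03 CPM against 13.4, 7.83 and 4.43 CPM. Its libraries held few counts, from 29 to 411, and its mice spread widely in both groups, which overlapped.

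*Dnajc6* was the member that was higher at an unadjusted p under 0.05. It encodes auxilin, which uncoats clathrin vesicles and is best known from nerve terminals. It had 42, 304 and 0 counts in miRNA-26b-/- and 19, 0 and 0 counts in miRNA-26b+/+ mice, or 1.64, 9.06 and 0 CPM against 0.620, 0 and 0 CPM. Most of its counts came from a single mutant mouse, replicate 2, and the groups overlapped. It exceeded 1 CPM only in 2 mutant libraries, so it passed the filter on low counts through the group where it is high, and its p-value gives no support for a difference. The log2 fold change was 4.16 (SE 1.59, 95% interval 0.79 to 7.53, edgeR, unadjusted p = 0.0186, adjusted p = 0.736). Without replicate 1 or 2 of the mutants *Dnajc6* had too few counts for a test, and without miRNA-26b+/+ replicate 3 its unadjusted p was 0.0603. With DESeq2 the unadjusted p was 0.262, with limma voom 0.326 and with the earlier quasi-likelihood method of edgeR 0.109.

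The mouse with most of these counts also had the highest sums of several markers of other cells. Over 8 markers of sympathetic neurons, miRNA-26b-/- mice had 16.8, 385.7 and 24.999 CPM and miRNA-26b+/+ mice 17.2, 65.7 and 30.4 CPM. *Th* and *Dbh*, which make noradrenaline, were at 0 counts in every library but replicate 2 of each group, where *Dbh* reached 86.2 CPM in the mutant and 15.05 CPM in the control. The 5 skeletal muscle markers summed to 26.4, 83.3 and 8.40 CPM in the mutants and to 6.50, 11.2 and 2.18 CPM in the controls. The 5 cardiac muscle markers summed to 10.5, 236.7 and 8.12 CPM against 44.2, 206.5 and 19.95 CPM, and the 5 white adipocyte markers to 1160, 2463 and 801.1 CPM against 1153, 1651 and 614.7 CPM. The 5 brown adipocyte markers summed to 203.4, 439.1 and 216.6 CPM against 265.4, 389.8 and 147.5 CPM. All 5 sums were highest in mutant replicate 2, and the part of any of these cells in the counts of *Dnajc6* and *Dnajc12* was not tested.

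*Dnajc12*, a co-chaperone of the enzymes that hydroxylate aromatic amino acids, tyrosine hydroxylase among them, had 32, 135 and 0 counts in miRNA-26b-/- and 17, 79 and 0 counts in miRNA-26b+/+ mice. In both groups replicate 2 was the highest and replicate 3 was at 0. Replicate 2 was also the highest of both groups for the sums of cardiac muscle, skeletal muscle, neuron and both kinds of adipocyte markers. The log2 fold change was 0.80 (SE 1.19). *Dnajc5*, the cysteine string protein of synaptic and other vesicles, was even, with 85.2, 106.0 and 101.1 CPM against 97.3, 96.7 and 93.8 CPM and a log2 fold change of 0.03 (95% interval -0.32 to 0.37). *Dnajc13*, which works on endosomes, had 54.7, 60.0 and 76.1 CPM against 75.2, 81.3 and 78.4 CPM. Its replicate 3 alone reached the controls, and the log2 fold change was -0.30 (SE 0.18). Leaving out both replicates 2, 0 of the 36 members that could still be tested passed at an unadjusted p under 0.05, beside 4% of all genes.

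**Figure D4:**
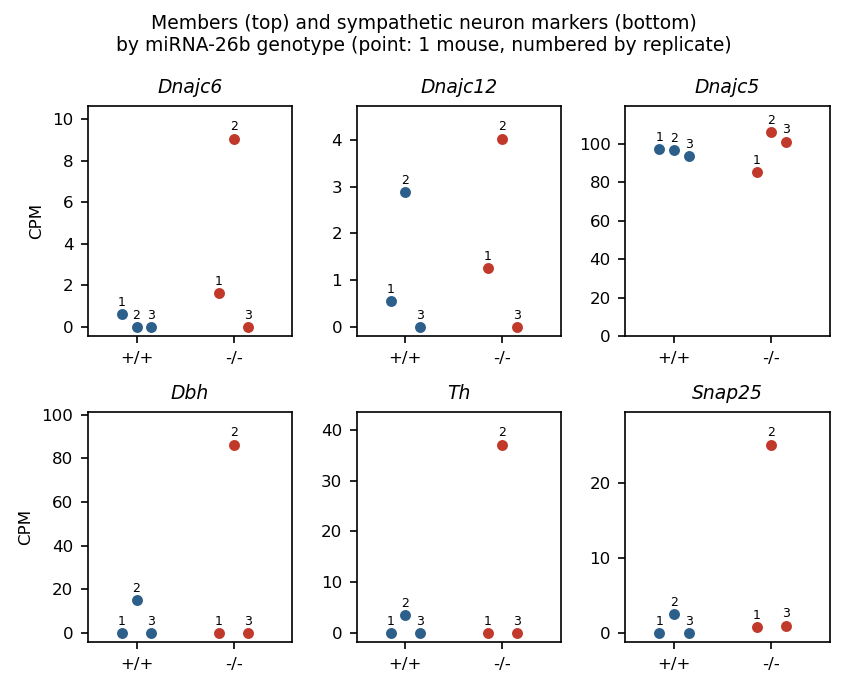
CPM of *Dnajc6*, *Dnajc12* and *Dnajc5* (top) and of 3 markers of sympathetic neurons (bottom) in each mouse by miRNA-26b genotype, numbered by replicate. The neuron markers and *Dnajc6* are highest in miRNA-26b-/- replicate 2, *Dnajc12* is highest in replicate 2 of each group, and *Dnajc5* lies between 85.2 and 106.0 CPM in all 6 mice.

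The HSP70 chaperones with which the family works were measured in the same libraries. Of 15 HSP70 and HSP110 genes, 5 were lower in miRNA-26b-/- mice at an unadjusted p under 0.05 and 0 were higher, with a median log2 fold change of -0.49, beside 3.07% of all genes lower. *Hspa8*, the constitutive cytosolic HSP70, had 749.8, 582.6 and 893.1 CPM against 1138, 1239 and 1143 CPM. Every mutant was below every control, at -0.66 (SE 0.15, edgeR, unadjusted p = 0.000517, adjusted p = 0.640). *Hspa5*, the HSP70 of the endoplasmic reticulum served by *Dnajb9*, *Dnajb11*, *Dnajc3* and *Dnajc10*, had 899.7, 567.0 and 792.6 CPM against 1058, 1079 and 1197 CPM, a log2 fold change of -0.56 (SE 0.16). The stress-inducible *Hspa1a* and *Hspa1b* were at -0.71 (SE 0.42) and -0.64 (SE 0.52) with overlapping groups, and *Hspa9*, the HSP70 of mitochondria served by *Dnaja3*, was at -0.26 (SE 0.15). *Hspa4l* and *Hsph1*, of the HSP110 branch, and *Hyou1* of the endoplasmic reticulum were the other 3 that were lower. The difference between these genes and the DNAJ members was not itself tested.

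Of 9 nucleotide exchange factors 2 were lower at an unadjusted p under 0.05, *Bag3* and *Hspbp1*, and the median log2 fold change of the 9 was -0.07. Beside this and the counts that follow, 3.07% of all 16017 genes tested were lower and 6.47% passed in either direction. Of 18 HSF1 response genes outside the family, 5 of which are also in the lists of HSP70 genes, 11 were lower and 0 were higher, with a median of -0.55. Besides those named these were *Hspb1*, *Hsp90aa1*, *Hsp90ab1*, *Hspd1*, *Fkbp4*, *Ahsa1* and *Stip1*. Of 14 genes of the unfolded protein response outside the family, 6 were lower, with a median of -0.27, and besides *Hspa5* and *Hyou1* these were *Hsp90b1*, *Pdia4*, *Manf* and *Creld2*. The DNAJ members that HSF1 is known to induce, *Dnaja1*, *Dnaja4*, *Dnajb1* and *Dnajb4*, had log2 fold changes of -0.19, -0.51, -0.51 and -0.23, and 0 of the 4 passed. Without miRNA-26b+/+ replicate 1, *Dnaja1* was at 0.25, above 0, and *Dnajb4* at -0.040. Of 6 J-domain proteins outside the naming rule 4 could be tested and 0 passed, with a median of -0.12.

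After adjustment 0 genes of these lists passed with edgeR, where 1 of all genes did. With DESeq2, where 57 of all genes passed, 3 of the 15 HSP70 and HSP110 genes passed, *Hspa8*, *Hspa4l* and *Hsph1*. The 6 of the 18 HSF1 response genes that passed with DESeq2 include these 3. With limma voom, where 3 of all genes passed, 1 of the 18 did, *Hspb1*. Here and below, genes that the HSP70 and HSF1 lists share are counted in each. Leaving out both replicates 2, 3 of the 15 and 8 of the 18 were lower at an unadjusted p under 0.05, and 0 of the 14 genes of the unfolded protein response were. Of all genes tested without these libraries, 4% passed in either direction. Without miRNA-26b+/+ replicate 1 the median of the HSP70 and HSP110 genes was -0.21 and 0 exchange factors passed, beside 5.34% of all genes in either direction. Without miRNA-26b-/- replicate 3 the number of HSP70 and HSP110 genes that were lower was 8, beside 10.8% of all genes in either direction. Without miRNA-26b-/- replicate 2, 2 of the 14 genes of the unfolded protein response and 0 exchange factors were lower, beside 5.76% of all genes in either direction. The median of the genes of the unfolded protein response was then -0.13. Without miRNA-26b+/+ replicate 3 that median was -0.17. The exchange factors had 1 lower without replicate 3 of either group, beside 4.36% (miRNA-26b+/+) and 10.8% (miRNA-26b-/-) of all genes in either direction. The median of the exchange factors was above 0 (0.042 and 0.024) without miRNA-26b+/+ replicate 2 or miRNA-26b-/- replicate 3.

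**Figure D5:**
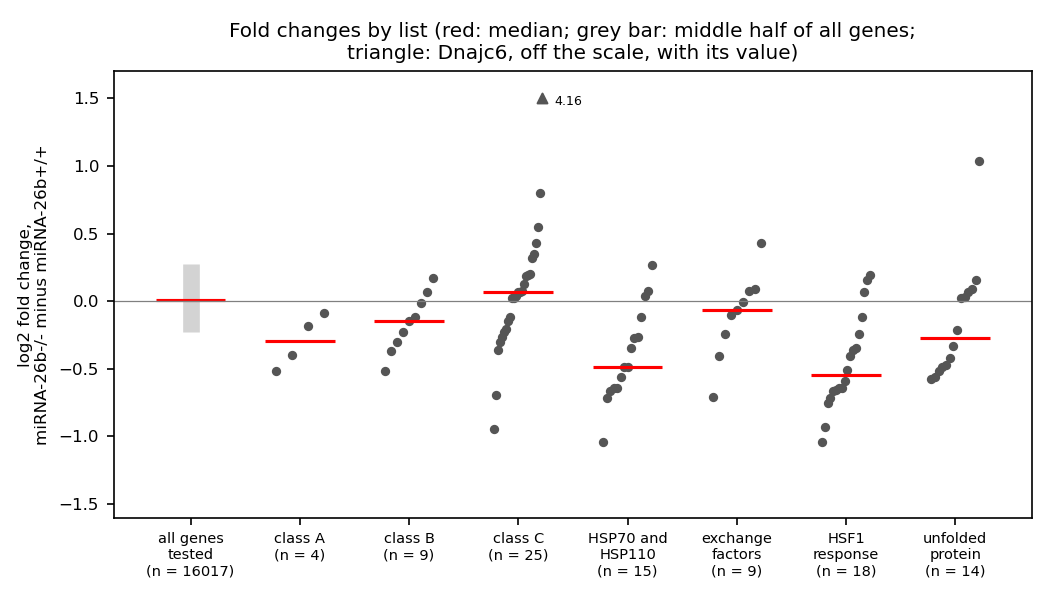
Log2 fold changes (miRNA-26b-/- minus miRNA-26b+/+) of single genes by class and list, with the median in red and the middle range of all 16017 genes tested as a grey bar. Class A and B have medians of -0.29 and -0.15 and class C of 0.07, beside -0.49 for HSP70 and HSP110 genes and -0.55 for HSF1 response genes; *Dnajc6* is off the scale at 4.16.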

How the data were processed

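The authors deposited raw read counts per gene. Reads had been aligned to GRCm38 by STAR and were counted with featureCounts 1.6.4 over the exons of each gene name in GENCODE release M21 per the file headers, where the paper names M23. Reads were counted without strand, reads over several genes were counted for each, and reads that align to several places were not counted. A second deposited table holds log2 CPM and the authors' own fold changes and p-values, and was not used. Libraries held 25706728 to 33345037 counts, and no 2 libraries of a group agreed within sampling noise. The labels do not say whether the mice were littermates, so p-values measure the spread between these mice.

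From the deposited counts, genes were kept when their counts summed to 2 or more and 2 or more libraries exceeded 1 CPM, were normalized by TMM (factors 0.982 to 1.015) and tested in edgeR 4.0.16 (R 4.3.3) by the quasi-likelihood F test with genotype as the only factor. A prior count of 0.125 was used for fold changes, and Benjamini-Hochberg adjustment ran over all 16017 genes. SE is the size of the log2 fold change over the root of F. CPM are on TMM-scaled library sizes and are given with counts where these are few. Alternatives were library size alone, the size factors of DESeq2, DESeq2 1.42.0, limma voom 3.58.1, the earlier quasi-likelihood method, other filters on low counts and each library left out. Leaving out both replicates 2 was chosen after seeing the data. The fit was tested on simulated data.

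Named genes were members with an unadjusted p under 0.05 or a log2 fold change of at least 1 in size, the 3 of each class with the highest CPM per kb, members within 20 Mb of *Mir26b*, untested members, 5 HSP70 genes and genes of the other lists with an unadjusted p under 0.05. Other members were named after their values were seen. The members and lists were chosen with earlier results of these data known. Promoters, the miRNA and their positions are from RefSeq for GRCm38.p6, 3′ UTRs and gene positions from GENCODE M21. Of the 43 members 36 matched a promoter by symbol. Intervals are 95% intervals of the fit, and the limit of 3 counts for a gene at 0 covers counting error only. Protein sequences were not analysed here.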

Additional observations from a re-analysis of the deposited data

How the results depend on the processing

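The count of 0 members after adjustment was the same under every alternative run. At an unadjusted p under 0.05, where edgeR gave 1 member, higher, 0 passed with DESeq2 and with the earlier quasi-likelihood method of edgeR. With limma voom 2 passed, 0 higher and 2 lower (*Dnaja4* and *Dnajb1*), and the median log2 fold change of the members was -0.013. Without a filter beyond a sum of 2 counts, 40 members were tested and the median was -0.094. When 1 library at a time was left out, the number of members that passed ranged from 0 to 6, of those higher from 0 to 1 and of those lower from 0 to 5, and the median from -0.15 to 0.031. The share of all genes that passed in these fits ranged from 4.36% to 10.8%. Leaving out replicate 2 of each group, the libraries with counts of *Th* and *Dbh*, gave 0 members, beside 4% of all genes, and a median of -0.096. Normalization by library size or by the size factors of DESeq2, and filterByExpr, left the count at 1.

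Of 528 log2 fold changes of single members under the alternatives, 30 had another sign than in the main fit, over 15 members, of which 2 had a log2 fold change of 0.2 or more in size. The causes of these changes were not tested. No paired analysis was possible because the labels give no replicate numbers, litters or batches that the groups share. Depth limits *Dnajc6*, *Dnajc12* and the 5 untested members, and also *Dnajc28*, with 29 counts in miRNA-26b-/- replicate 3, and *Dnajc24*, with 49 to 129 counts. Counts without strand limit most *Dnaja4*, *Dnajc30* and *Dnajc14* (16.99% of exon bases shared with *Ormdl2*), and 11 members in all share over 5% with 1 gene. The median 95% interval half-width of 0.53 on the log2 scale limits the rest.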

Other observations

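The lowest values of the members were not evenly spread over the mice. Of the 38 tested members, 13 were lowest of all 6 libraries in miRNA-26b-/- replicate 3 and 1 in miRNA-26b+/+ replicate 1, and the other libraries held 5 to 7 each. The 13 include *Dnajc6* and *Dnajc12*, which were at 0 there and tied with miRNA-26b+/+ libraries at 0. These ties were counted for the mutant library alone. The same count was not made over all genes tested, so it is not a result about the family. MiRNA-26b-/- replicate 3 also had the fewest genes with at least 1 count, 17744, against 18136 to 19287 in the other libraries. *Dnajc9*, *Dnajc16*, *Dnajc28* and *Dnajc4*, chosen after their values were seen, were among those lowest in replicate 3, at 7.41, 14.2, 1.03 and 13.8 CPM. The highest value fell on 5 to 8 members in each library. The 7 Schwann cell markers summed to 350.7 to 494.8 CPM in miRNA-26b-/- and to 239.2 to 305.9 CPM in miRNA-26b+/+ mice, and the groups did not overlap.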
